A study of Mus musculus with 2 samples.

Results

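The amyloid precursor protein gene App, its relatives Aplp1 and Aplp2, and genes whose products cut or bind the App protein were described in mouse hippocampus. The 9 genes were chosen by symbol: App, Aplp1 and Aplp2 (the APP family), Adam10 and Bace1 (sheddases), Psen2 and Ncstn (gamma-secretase), and Apbb1 and Itm2b (binding partners). They were 9 of 55536 annotated genes and had 80 of 141864 annotated transcripts, and all 9 symbols were found in both quantifications. Hippocampal total RNA of female B6CASTF1/J mice, 14 days old, was sequenced after ribosomal RNA was removed, with synthetic ERCC RNAs spiked in. The mice are first-generation hybrids of the strains C57BL/6J and CAST/EiJ. The 2 libraries formed 1 group, replicates 2 and 1, with 3 females listed and 300 ng of RNA for each. No treatment, mutation or second tissue was compared, so levels, splice forms and the spread between the libraries are described and no p-value is given. Which layer of the hippocampus the label "layer of hippocampus" means was not stated.

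APP family proteins cross the membrane once and carry a large part outside the cell and a short tail inside it. A sheddase first removes the outer part: Adam10 is the main alpha-secretase of neurons, and Bace1 is the beta-secretase. The membrane stub is then cut by gamma-secretase, in which a presenilin is the catalytic subunit and nicastrin, Aph1 and presenilin enhancer proteins are the partners. Beta- and gamma-cleavage of App together release amyloid beta, the peptide of Alzheimer plaques, while alpha-cleavage cuts within that peptide. Neurons are known for an App form that lacks the Kunitz exon, which encodes a serine protease inhibitor domain, and other cell types for forms that hold it.

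The exons that set these splice forms apart are printed first, because the results on App, Aplp2, Apbb1 and Bace1 turn on them. All sequences are 5′ to 3′ on the coding strand, from GENCODE M21 transcripts of GRCm38/mm10. In the Kunitz exons of App (chr16:85043576-85043743, minus strand) and Aplp2 (chr9:31167561-31167728, minus strand), capitals mark the positions at which both hold the same base.
App Kunitz exon: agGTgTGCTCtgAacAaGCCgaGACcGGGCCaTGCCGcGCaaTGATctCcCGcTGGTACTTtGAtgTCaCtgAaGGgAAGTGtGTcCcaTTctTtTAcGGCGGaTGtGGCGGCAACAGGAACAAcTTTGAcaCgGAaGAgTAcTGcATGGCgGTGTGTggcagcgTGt
Aplp2 Kunitz exon: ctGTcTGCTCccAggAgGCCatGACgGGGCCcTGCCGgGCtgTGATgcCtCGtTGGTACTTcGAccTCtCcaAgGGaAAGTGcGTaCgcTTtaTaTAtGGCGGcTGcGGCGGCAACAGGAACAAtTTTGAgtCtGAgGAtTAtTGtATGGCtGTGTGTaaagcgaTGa
Both exons were 168 bases long, 56 codons, and held the same base at 114 positions, 67.9%, without a gap. Each was exon 7 of its longest Kunitz form, of 18 exons in App-206 and of 17 exons in Aplp2-201.

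The App OX2 exon, named for its likeness to a part of the OX-2 antigen, follows the Kunitz exon directly (exon 8 of App-206, chr16:85040251-85040307, minus strand, 57 bases). Exon 15 of App lies before the amyloid beta stretch (chr16:84971408-84971461, minus strand, 54 bases), and forms without it are known from leukocytes and microglia as L-APP.
App OX2 exon: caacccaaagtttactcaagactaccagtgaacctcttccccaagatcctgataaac
App exon 15: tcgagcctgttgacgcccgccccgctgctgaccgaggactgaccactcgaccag
The splice junction after exon 6 distinguishes the form without the Kunitz exon (App-201) from one with it (App-202). Lower case is the end of exon 6 and capitals are the first bases of the next exon that is used.
App-201 junction: aggaggtggtccgagTTCCCACGACAGCAG
App-202 junction: aggaggtggtccgagAGGTGTGCTCTGAAC

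The amyloid beta stretch of App was 126 bases, 42 codons, on the minus strand. Lower case marks its first 51 bases (chr16:84965670-84965720) and capitals mark the 75 bases on the next exon (chr16:84962794-84962868), so that the splice junction lies inside the peptide's coding sequence.
App amyloid beta stretch: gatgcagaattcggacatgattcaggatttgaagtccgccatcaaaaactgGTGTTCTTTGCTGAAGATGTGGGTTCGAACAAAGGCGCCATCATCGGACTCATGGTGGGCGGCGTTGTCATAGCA
Of the 6 App transcripts with a complete reading frame, 5 held this stretch, and App-207, of 582 codons, did not.

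The alternative exons of the other genes were the 36-base exon of Aplp2 (exon 13 of Aplp2-202, chr9:31156190-31156225, minus strand), the microexon of Apbb1 (exon 9 of Apbb1-219, chr7:105565946-105565951, minus strand) and the 102-base exon of Bace1 (exon 6 of Bace1-201, chr9:45858400-45858501, plus strand). For Apbb1, capitals mark the 6 bases of the microexon between 15 bases of each neighbouring exon.
Aplp2 36-base exon: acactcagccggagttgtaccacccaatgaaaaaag
Apbb1 microexon: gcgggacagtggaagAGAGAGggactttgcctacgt
Bace1 102-base exon: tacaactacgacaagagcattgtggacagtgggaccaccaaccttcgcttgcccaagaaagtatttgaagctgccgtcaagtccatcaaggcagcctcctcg
The length of each of these 7 alternative exons was a multiple of 3, so that skipping any of them keeps the reading frame.

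Depth was 32740837 expected counts on annotated genes in replicate 2 and 33321573 in replicate 1. Expected counts are reads shared out over genes by the authors' quantifier, and TPM divides them by transcript length and scales the sum to a fixed total. The first quantification was made from alignments to the transcriptome and the second directly from reads. Neuronal markers given as a list of 7 genes had a sum of 2517 TPM in replicate 2 and 2630 TPM in replicate 1, and all 7 were detected, so the labelled brain tissue carried its defining markers. The lists of choroid plexus (8 genes), ependyma (5 genes) and fibroblast and meningeal markers (6 genes) were lower in replicate 2 for every gene. They summed to 8.44 TPM in replicate 2 against 1431 TPM in replicate 1, 10.1 against 23.4 TPM and 117 against 188 TPM, in that order of lists. No marker was at 0 in either library. The other 7 lists had median log2 ratios between -0.12 and 0.22, replicate 2 over replicate 1. In such bulk samples, fewer cells of a type and less RNA per cell cannot be told apart.

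All 9 genes were detected, meaning at least 1 TPM in both libraries, against 26.6% of all annotated genes. App, Aplp1, Itm2b, Aplp2 and Apbb1, 5 of the 9, lay in the highest 10% of the 12885 detected protein-coding genes, whose median was 14.88 TPM. Psen2 alone lay under that median. Mean levels ran from 9.3 TPM for Psen2 to 499.9 TPM for App, and the substrates and binding partners stood above the proteases. Going down the order App, Aplp1, Itm2b, Aplp2, Apbb1, Bace1, Ncstn, Adam10, Psen2, the libraries of neighbouring genes overlapped only for Ncstn and Adam10. In the second quantification Itm2b, with a mean of 822.6 TPM, stood above App at 764.4 TPM and Aplp1 at 619.4 TPM. Over complete reading frames alone, Apbb1 stood above Aplp2.

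**Figure D1:**
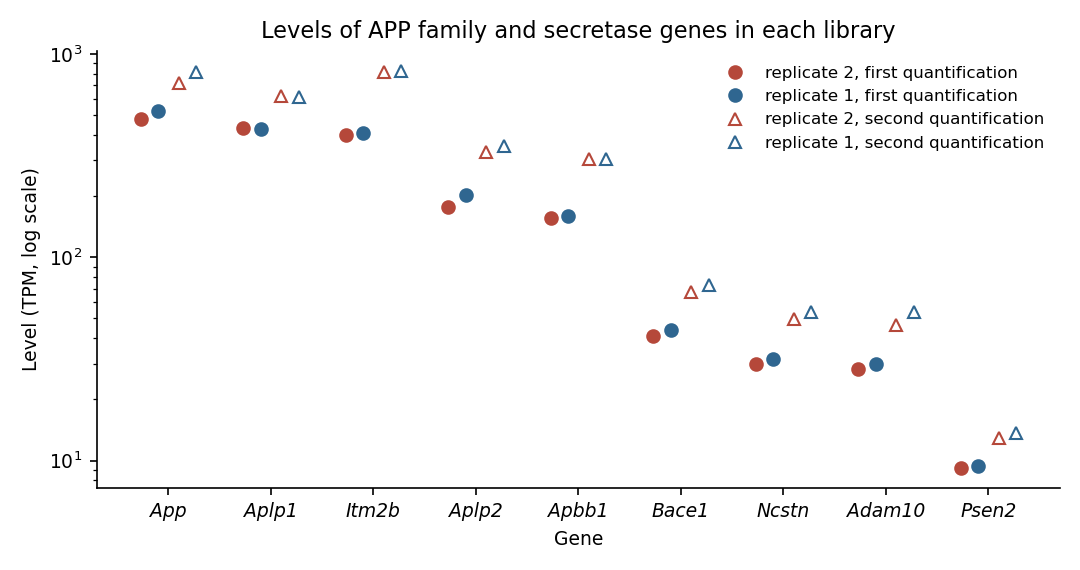
Level of each gene in TPM (log axis) in replicate 2 and replicate 1, from the first quantification (filled circles) and the second (open triangles). App is highest in the first quantification at 477 and 523 TPM, Itm2b is highest in the second at 818 and 827 TPM, and Psen2 is lowest in both.

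App (chr16:84949685-85173766, minus strand, mm10) had 476.65 TPM in replicate 2 and 523.18 TPM in replicate 1, a mean of 499.9 ± 32.9 TPM (SD, n = 2). It ranked 55th among detected protein-coding genes, above 99.57% of them. The protein-coding genes nearest to it in level over the 2 libraries were Dnm1 (457.61 and 494.61 TPM), which encodes the endocytic GTPase dynamin of neurons, Olfm1 (513.28 and 513.81 TPM), a secreted glycoprotein gene of neurons, and Mt3 (495.3 and 486.07 TPM), the brain metallothionein gene. Their distances from App were 0.10, 0.11 and 0.12 on the log2(TPM + 0.1) scale. The second quantification gave App 716 TPM in replicate 2 and 813 TPM in replicate 1. Overlapping genes of the opposite strand had at most 0.06 TPM, and 2.07% of the gene's 31-base words also occurred in transcripts of other genes.

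App RNA was mostly the form without both alternative exons. App-201, of 695 codons, had 434.49 TPM in replicate 2 and 471.75 TPM in replicate 1. That was 91.15% and 90.17% of the gene's TPM, a mean of 90.66 ± 0.70% (SD, n = 2). Both libraries were within 1 percentage point of each other on this share. In the second quantification the share was 90.65% in replicate 2 and 85.04% in replicate 1. The lower value there went with App-210, a short processed transcript that does not cover the exons, which had 1.75 TPM in replicate 2 and 0.43 TPM in replicate 1 in the first quantification, and in the second was listed at 0 in replicate 2 and at 35.28 TPM in replicate 1. App-210 was named after its values were seen.

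Forms with the Kunitz exon alone (App-202, of 751 codons, and App-204, of 733 codons) made up 3.50% of App TPM in replicate 2 and 4.36% in replicate 1. All of it was App-202, at 16.66 and 22.8 TPM, and App-204 was listed at 0 in both libraries. Forms with the Kunitz and OX2 exons made up 4.16% in replicate 2 and 4.61% in replicate 1. Among them App-203, of 752 codons, had 11.5 and 13.75 TPM, and App-206, of 770 codons, had 7.42 and 8.36 TPM. App-207 had 0.57 and 1.0 TPM, and App-209, annotated without a reading frame, had 0.36 and 0.98 TPM. No annotated transcript held the OX2 exon without the Kunitz exon, so that form could not be counted. The remaining 4 of the 11 App transcripts, App-205, App-208, App-210 and App-211, did not cover the region and held 1.19% of App TPM in replicate 2 and 0.87% in replicate 1.

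**Figure D2:**
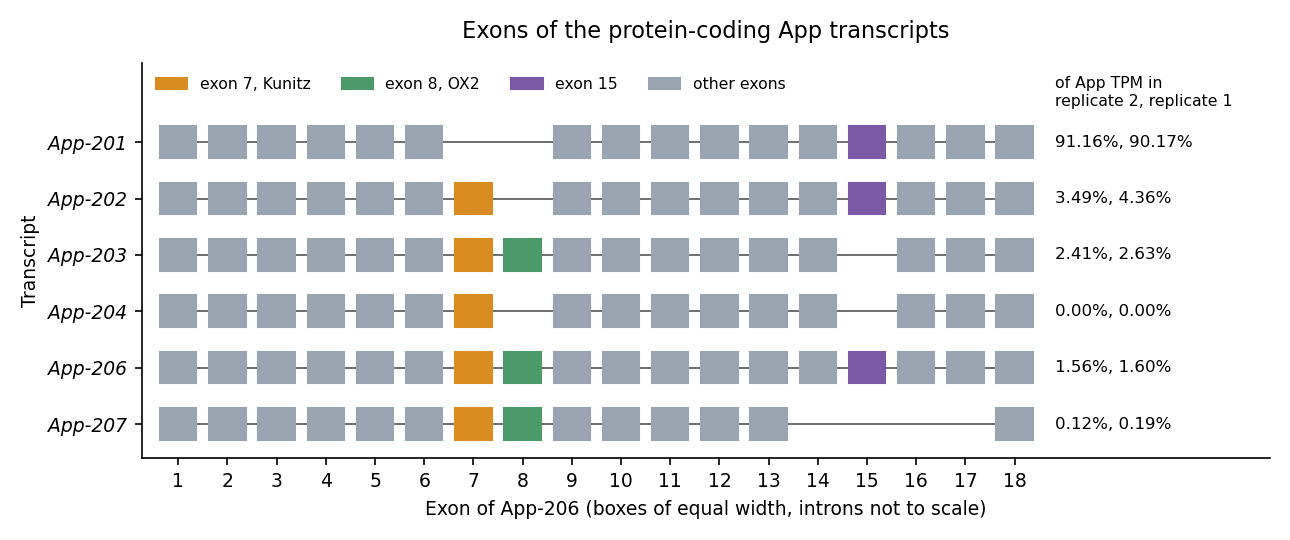
Exons of the 6 App transcripts with a complete reading frame, drawn as boxes of equal width in the order of App-206, with each transcript's deposited percent of App TPM in replicate 2 and replicate 1 at the right. App-201, which skips exons 7 and 8, holds over 90% in both libraries, and App-207 lacks exons 14 to 17.

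Read exon by exon, over transcripts that contain both neighbouring exons, the App Kunitz exon was included in 7.75% of App TPM in replicate 2 and 9.04% in replicate 1 (8.40 ± 0.91%, SD, n = 2). The OX2 exon was included in 4.21% and 4.65% (4.43 ± 0.30%). Exon 15 was included in 97.55% and 97.34% (97.45 ± 0.15%), so that forms without it, represented by App-203, were a few percent of App RNA. The second quantification placed these 3 shares at 9.68%, 5.05% and 96.96% (means). Its order of the exons was the same: the Kunitz and OX2 exons were rarely included and exon 15 nearly always. Inclusion of the Kunitz and OX2 exons was lower in replicate 2, as were the choroid plexus and meningeal markers, and the part of those cells in the difference was not tested.

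Aplp1 (chr7:30434982-30445535, minus strand), the family member known mainly from neurons, had 431.37 TPM in replicate 2 and 428.52 TPM in replicate 1 (430 ± 2.02 TPM). It ranked 75th. Nearly all of it was one transcript, Aplp1-201, of 654 codons, at 421.3 and 418.3 TPM, which was 97.67% and 97.61% of the gene. No Kunitz form was counted for Aplp1, whose protein is known to lack that domain. App stood above Aplp1 in each library, 1.11 times in replicate 2 and 1.22 times in replicate 1.

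Aplp2 (chr9:31149557-31211815, minus strand), a widely expressed relative of App, had 176.62 TPM in replicate 2 and 201.41 TPM in replicate 1 (189 ± 17.5 TPM) and ranked 334th. Of the summed TPM of the 3 family genes, App held 43.95% in replicate 2 and 45.37% in replicate 1, Aplp1 39.77% and 37.16%, and Aplp2 16.28% and 17.47%. These shares stayed close in the second quantification, where the means were 44.3%, 36.0% and 19.7%. Over complete reading frames alone the share of Aplp2 was smaller. Mean levels were then 494 TPM for App, 420 TPM for Aplp1 and 105 TPM for Aplp2. In the second quantification they were 741, 613 and 133 TPM.

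Aplp2 held its Kunitz exon far more often than App. It was included in 61.93% of informative Aplp2 TPM in replicate 2 and 63.53% in replicate 1 (62.73 ± 1.13%), against 7.75% and 9.04% for the exon of App. The 2 genes' values did not overlap in either quantification, the second giving means of 67.0% for Aplp2 and 9.68% for App. In level, transcripts with the Aplp2 Kunitz exon had a sum of 82.34 TPM in replicate 2 and 91.9 TPM in replicate 1, and those with the App Kunitz exon one of 36.51 and 46.89 TPM. Kunitz-bearing Aplp2 RNA was thus 2.26 and 1.96 times that of App, although Aplp2 as a whole stood below App. The second quantification gave 2.19 and 1.92 times. Part of the Aplp2 sum and of its Kunitz share was Aplp2-203, an incomplete transcript that holds the exon. Without Aplp2-203 the share was lower. Of the complete forms, Aplp2-201, with the exon, had 51.04 and 56.09 TPM, and Aplp2-202, without it, had 50.61 and 52.75 TPM. In the second quantification these were 58.8 and 63.4 TPM against 72.4 and 72.2 TPM. Aplp2-201, the complete form, alone stood above the App sum in the first quantification and below it in the second, where it had 58.8 and 63.4 TPM against 62.7 and 81.5 TPM for App.

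The Aplp2 reading frames differed in how these exons were combined. Aplp2-201, of 751 codons, holds the Kunitz exon and skips the 36-base exon, and had 51.04 TPM in replicate 2 and 56.09 TPM in replicate 1. Aplp2-202, of 707 codons, does the reverse, and had 50.61 and 52.75 TPM. Aplp2-201 was the higher of the pair in each library, but in the second quantification it was the lower, at 58.8 and 63.4 TPM against 72.4 and 72.2 TPM for Aplp2-202. Aplp2-209, which skips both, was listed at 0. Aplp2-203, with an incomplete reading frame that holds the Kunitz exon and ends in the 36-base exon, had 31.3 and 35.81 TPM in the first quantification, against 78.8 and 93.0 TPM in the second. Inclusion of the 36-base exon was 49.79% in replicate 2 and 48.47% in replicate 1 without Aplp2-203, and 61.61% and 61.22% with it, so that this share rests on how the incomplete transcript is read. Retained-intron transcripts held 24.73% and 28.18% of Aplp2 TPM, and 35.85% and 34.76% in the second quantification. Among them Aplp2-207 had 27.01 and 30.77 TPM in the first quantification, against 41.6 and 50.9 TPM in the second. Aplp2-208, also annotated with a retained intron, had 6.59 and 11.95 TPM in the first quantification and 48.0 and 38.2 TPM in the second.

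**Figure D3:**
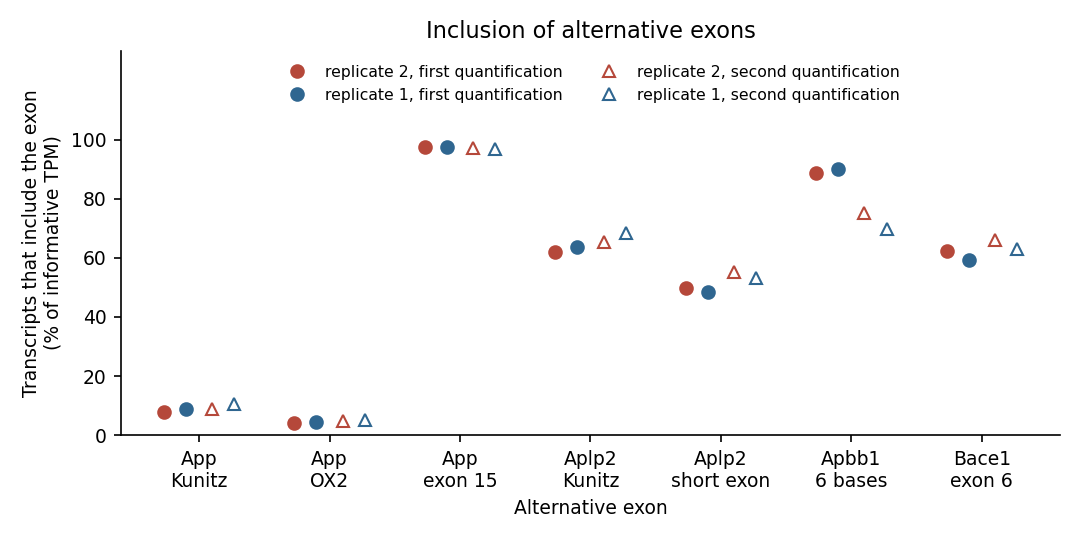
Percent of informative TPM on transcripts that include each alternative exon, in replicate 2 and replicate 1, from the first (filled circles) and second (open triangles) quantification. The Kunitz exon lies under 11% in App and over 60% in Aplp2 in every library and quantification, and the Apbb1 microexon shows the widest gap between quantifications, with means of 89.3% and 72.4%.

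Bace1 (chr9:45838580-45864399, plus strand), the beta-secretase gene, had 41.19 TPM in replicate 2 and 44.02 TPM in replicate 1 (42.6 ± 2.00 TPM) and ranked 2453rd. Bace1-201, the form of 501 codons, had 19.41 and 20.18 TPM. Bace1-202, of 467 codons, lacks the 102-base exon, a loss of 34 codons, and had 15.39 and 17.54 TPM. The exon was included in 62.15% of informative Bace1 TPM in replicate 2 and 59.21% in replicate 1 (60.68 ± 2.08%). That share counts Bace1-204 and Bace1-206, which have no complete reading frame, as holding the exon beside Bace1-201. Bace1-201 was the higher of the 2 complete forms in each library. In the second quantification it was the lower, at 22.4 and 22.6 TPM against 22.9 and 27.2 TPM for Bace1-202. Both forms were thus a large part of Bace1 RNA in both libraries. Bace1-204, with a retained intron, had 3.36 and 2.29 TPM in the first quantification against 15.8 and 12.3 TPM in the second. The retained-intron share of Bace1 moved with it, with means of 6.68% and 20.1%. Bace1-206, an incomplete reading frame, had 2.5 and 2.99 TPM against 6.50 and 11.2 TPM. Of the gene's 31-base words, 30.3% were shared with transcripts of 2723 other genes, the highest share of the 9 genes. Rnf214 overlaps Bace1 on the opposite strand at 25.99 and 29.09 TPM, as do Gm49338 at 7.33 and 7.64 TPM and the antisense RNA gene Gm16536 at 6.79 and 7.28 TPM. Because the use of strand in counting was not given in the sources used here, the Bace1 level is uncertain by what these genes could add to it.

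Adam10 (chr9:70678997-70780229, plus strand), the alpha-secretase gene, had 28.35 TPM in replicate 2 and 30.0 TPM in replicate 1 (29.2 ± 1.17 TPM). Bace1 stood above it by 1.45 and 1.47 times, and by 1.46 and 1.37 times in the second quantification. Its main transcript, Adam10-201, of 749 codons, had 22.25 and 23.45 TPM. A second transcript, Adam10-202, annotated as a target of nonsense-mediated decay (the pathway that degrades RNAs with an early stop codon), had 5.28 and 6.09 TPM in the first quantification, against 15.04 and 15.49 TPM in the second. Decay-annotated transcripts were 18.62% of Adam10 TPM in replicate 2 and 20.30% in replicate 1 (19.46 ± 1.19%). That share was higher than in 94.0% of the 11675 detected protein-coding genes with more than 1 transcript, whose median was 0. In the second quantification it was 32.38% and 28.94%.

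Ncstn (chr1:172066013-172082795, minus strand) encodes nicastrin, the subunit that receives substrates. It had 29.74 TPM in replicate 2 and 31.77 TPM in replicate 1 (30.8 ± 1.44 TPM), a range that overlapped that of Adam10. Its one expressed full reading frame, Ncstn-201, of 708 codons, had 23.49 and 25.35 TPM. Retained-intron transcripts held 18.29% and 17.56% of the gene in the first quantification, against 27.85% and 28.53% in the second. Among them Ncstn-203 had 3.02 and 3.16 TPM in the first and 6.13 and 6.53 TPM in the second. Ncstn-205, also of that kind, had 1.02 and 1.01 TPM in the first quantification and 5.98 and 6.85 TPM in the second, and the decay-annotated Ncstn-204 had 0.81 and 0.85 TPM against 3.84 and 3.09 TPM. Copa overlaps Ncstn on the opposite strand at 59.03 and 65.89 TPM, above Ncstn itself, which leaves the same uncertainty as for Bace1.

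Psen2 (chr1:180227004-180263438, minus strand), a presenilin gene, had 9.2 TPM in replicate 2 and 9.4 TPM in replicate 1 (9.3 ± 0.14 TPM), the lowest level of the 9 genes, from 352 and 382 expected counts. Psen2-205, of 448 codons, carried 6.56 and 7.18 TPM. Retained-intron transcripts held 19.46% in replicate 2 and 9.25% in replicate 1, a difference that rests on few counts, since Psen2-206 had 4.47 counts in replicate 2 and 0 in replicate 1. Psen2-211 and Psen2-212, both annotated with a retained intron, had 0.7 and 0.54 TPM, and 0.54 and 0.33 TPM. Psen2-204, which shares the 448-codon length, was listed at 0 by the first quantification, while the second gave it 2.47 and 2.44 TPM.

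The Aph1 genes and Psenen, which encode further gamma-secretase subunits, were all detected, 4 of 4, with a median of 24.0 TPM. Aph1a was the highest of them at 41.24 TPM in replicate 2 and 36.24 TPM in replicate 1. Psenen, the presenilin enhancer gene, had 38.31 and 36.52 TPM. Aph1b had 9.21 and 11.98 TPM, and Aph1c had 2.35 and 2.31 TPM. Ncstn stood 3.23 and 3.38 times above Psen2, and 3.85 and 3.95 times in the second quantification.

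Apbb1 (chr7:105558483-105581653, minus strand) encodes an adaptor that binds the inner tail of App family proteins. It had 156.75 TPM in replicate 2 and 159.89 TPM in replicate 1 (158 ± 2.22 TPM), ranked 442nd, and stood 6.27 and 5.85 times above its relative Apbb2. Apbb1-219, of 710 codons, which holds the microexon, was the leading transcript at 82.93 and 95.2 TPM. Apbb1-215, of 451 codons, had 29.38 and 18.57 TPM, and in the second quantification 29.6 and 30.2 TPM. Apbb1-217, without the microexon and of 708 codons, had 14.26 and 13.56 TPM in the first quantification against 1.37 and 3.10 TPM in the second. Apbb1-209, of 487 codons, had 8.98 and 12.95 TPM against 19.3 and 6.41 TPM, so that the library with more of it differed between quantifications. The microexon, known in this gene as an exon that neurons use, adds 2 codons. It was included in 88.75% of informative TPM in replicate 2 and 89.93% in replicate 1 (89.34 ± 0.84%). The second quantification gave 75.01% and 69.78%. Apbb1-214, a form of 708 codons without the microexon, had 1.46 and 0.99 TPM in the first quantification against 61.95 and 71.91 TPM in the second, so the share of the microexon differed by more than 10 percentage points with the quantification in both libraries. The incomplete transcripts Apbb1-210 and Apbb1-211 had 1.09 and 0.46 TPM, and 3.29 and 2.14 TPM, in the first quantification, against 49.7 and 41.3 TPM, and 31.5 and 33.9 TPM, in the second.

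Itm2b (chr14:73362226-73385289, minus strand) encodes a membrane protein that binds App and, in mice, limits its cleavage. It had 399.76 TPM in replicate 2 and 409.46 TPM in replicate 1 (405 ± 6.86 TPM) and ranked 79th. The full-length transcript, Itm2b-201, of 266 codons, had 240.16 TPM in replicate 2 and 215.72 TPM in replicate 1. A retained-intron transcript, Itm2b-202, had 154.86 and 189.17 TPM, so that the 2 transcripts differed between the libraries in opposite directions. Retained-intron RNA was 38.74% of Itm2b TPM in replicate 2 and 46.20% in replicate 1 (42.47 ± 5.28%), higher than in 95.4% of the 11675 genes, whose median was 3.96%. In the second quantification that share was 31.49% and 32.20%, and Itm2b-202 had 258 and 266 TPM against 291 and 272 TPM for Itm2b-201. By mean level, Itm2b-202 alone would have stood between Aplp2 and Apbb1 in the order of genes, and between Apbb1 and Bace1 in the second quantification.

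**Figure D4:**
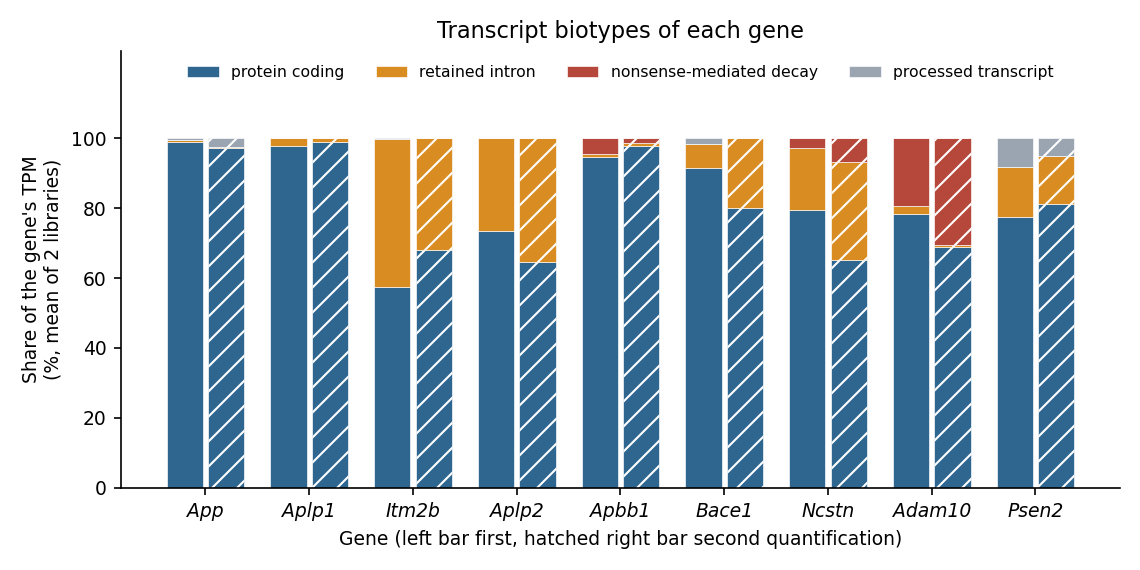
Share of each gene's TPM by annotated transcript biotype, as the mean of the 2 libraries, with the first quantification at the left and the second hatched at the right. Protein-coding transcripts hold 98.8% of App and 57.3% of Itm2b in the first quantification, and decay-annotated transcripts are a large part only of Adam10, at 19.5% and 30.7%.

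Between the first and the second quantification, 1 of the 9 genes differed by more than 2-fold the same way in both libraries, against 19.3% of genes tested. That gene was Itm2b, with log2 ratios, first over second, of -1.03 in replicate 2 and -1.01 in replicate 1, on the log2(TPM + 0.1) scale. Itm2b-203, an incomplete reading frame, had 0.53 and 1.66 TPM in the first quantification, against 264 and 284 TPM in the second. The median log2 ratio was -0.74 over the 9 genes and -0.63 over all detected protein-coding genes, so that most genes were lower in the first quantification and Itm2b lay beyond that shared shift. With only complete reading frames counted, Itm2b had 243.34 TPM in replicate 2 and 218.04 TPM in replicate 1 in the first quantification, against 296 and 277 TPM in the second, and the order App, Aplp1, Itm2b was the same in both. The next pair turned round: over complete reading frames Apbb1 averaged 142 TPM and Aplp2 105 TPM in the first quantification, and 205 and 133 TPM in the second.

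Replicate 2 was set against replicate 1 with expected counts scaled by TMM, and a gene was counted when it differed by more than 1.2-fold. None of the 9 genes did, against 21.1% of 14715 genes tested, and the count was also 0 under each other scaling. The median size of the log2 ratio was 0.03 over the 9 genes and 0.12 over all genes tested. Genes tested needed only 50 summed counts, while each of the 9 except Psen2 had at least 1638 expected counts in each library. The part of level in this difference was not tested. Itm2b was 1.09-fold higher in replicate 2 than in replicate 1 (exact binomial interval 1.06 to 1.12, 95%), and Aplp1 was 1.08-fold higher (1.06 to 1.10). App was at 0.968-fold (0.954 to 0.982) and Aplp2 at 0.972-fold (0.946 to 0.998). These intervals leave out 1 and cover counting error only. With 1 library on each side nothing shows whether animals differ by as much. In TPM, Itm2b was instead lower in replicate 2, at 399.76 against 409.46 TPM, and at 818 against 827 TPM in the second quantification. The direction for Itm2b thus differed between scaled counts and TPM. The intervals of Apbb1, Bace1, Ncstn, Adam10 and Psen2 held 1, and that of Psen2 was the widest (0.852 to 1.15).

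**Figure D5:**
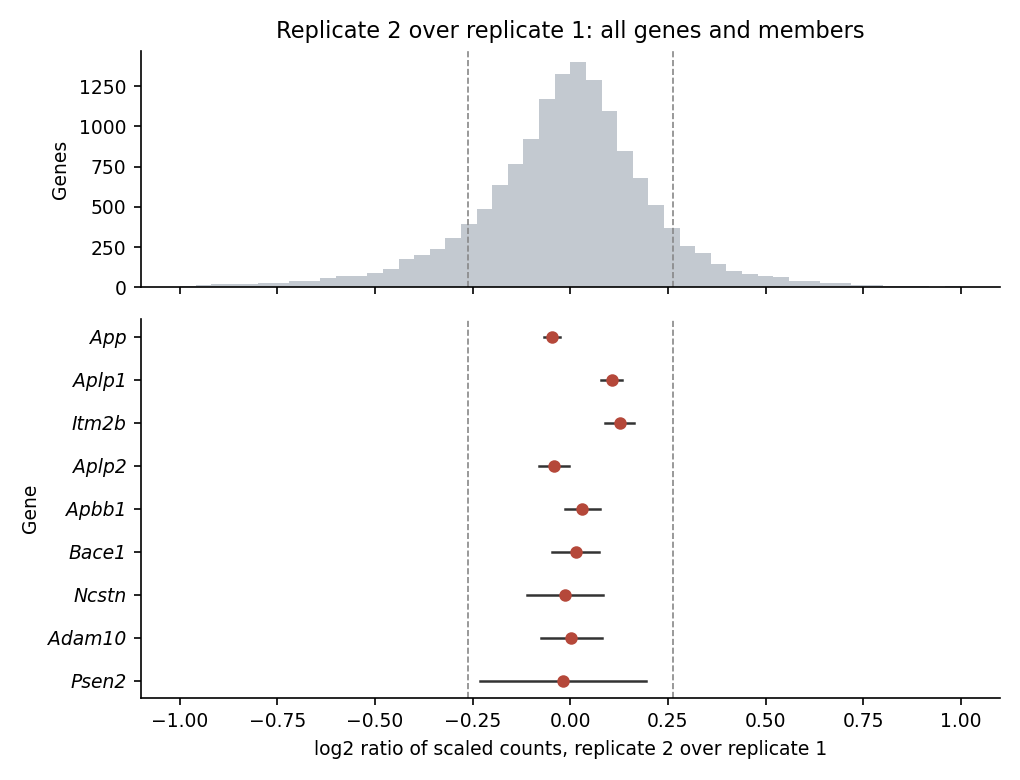
Log2 ratio of scaled expected counts, replicate 2 over replicate 1, as a histogram over genes tested that lie between -1 and 1 (top) and for the 9 genes as points with exact binomial counting intervals (bottom). Dashed lines mark a 1.2-fold difference; all 9 points lie between them.

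Genes of the same pathway were given as lists of 40 genes in all, of which 39 were detected. Of the 39 that could be tested, 6 differed between the libraries by more than 1.2-fold, against the 21.1% of all genes. They were named for that after their values were seen. Dab1, an adaptor of the reelin pathway, and Ece1, a peptidase that degrades amyloid beta, were higher in replicate 2 by 0.37 and 0.26 on the log2 scale. Ece1 passed the 1.2-fold rule narrowly. In TPM it was lower in replicate 2 in the first quantification, at 24.09 against 24.82, and higher in the second, at 26.0 against 22.5. The log2 ratio was -0.64 for Spint2, a Kunitz inhibitor gene with 6.93 TPM in replicate 2 and 11.73 TPM in replicate 1, and -0.35 for Mme, the neprilysin gene. It was -0.29 for Gga3, which sorts Bace1 to lysosomes, and -0.27 for Bace2. The counting intervals of Mme and Bace2 held 0. The part of the choroid plexus and meningeal cells, whose markers were also lower in replicate 2, was not tested.

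Among other sheddases, Adam9 was highest at 20.64 TPM in replicate 2 and 22.26 TPM in replicate 1, and Bace2, a relative of Bace1, was lowest at 2.46 and 4.66 TPM. Bace1 was thus 16.7 and 9.45 times Bace2 in the first quantification, and 23.4 and 16 times in the second. Scaled counts of Bace2 differed less between the libraries than its TPM, with a log2 ratio of -0.27. Adam10 was 3.15 and 3.03 times Adam17 in the first, and 3.85 and 4.18 times in the second. Of the Itm2 genes, Itm2c had 210.77 and 227.73 TPM and Itm2a 23.34 and 26.37 TPM. Cytoplasmic adaptors ran from Mapk8ip1, a scaffold of JNK signalling, at 171.14 and 171.18 TPM to Numb, an inhibitor of Notch signalling, at 11.15 and 13.94 TPM, with a median of 44.8 TPM over 8 genes. Apbb1 stood somewhat below Mapk8ip1 in the first quantification, at 156.75 and 159.89 TPM. In the second it stood above, at 303 and 306 TPM against 249 TPM for Mapk8ip1 in both libraries.

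Sorting and trafficking genes had the higher median of 58.9 TPM over 8 genes, led by Rtn3, a reticulon gene whose product binds Bace1, at 357.8 TPM in replicate 2 and 369.15 TPM in replicate 1. Gga1 was the lowest of them at 18.74 and 22.28 TPM. Other substrates of these secretases had a median of 60.5 TPM over 8 genes, from Lrp1, an endocytic receptor gene, at 113.46 and 124.45 TPM to Nrg1, a ligand gene of ErbB receptors, at 5.43 and 5.87 TPM. Every one of these 8 substrate genes lay below App, Aplp1 and Aplp2. The peptidases had a median of 15.2 TPM over 4 genes, from Ece1 at 24.09 and 24.82 TPM to Mme at 1.09 and 1.42 TPM. Of the other inhibitors, Serpini1, the neuroserpin gene, had 51.03 and 55.03 TPM, and Spint1 had 0.49 and 0.38 TPM.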

How the data were processed

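The 2 libraries held total RNA of 1 group. The authors quantified them against mm10 and GENCODE M21, per the file headers and the labels. The deposited first quantification gives expected counts, TPM and each transcript's percent of its gene, and the deposited second gives estimated counts and TPM. The sources used here give no aligner, quantifier version or use of strand in counting. The deposited TPM covers all entries, retained introns included.

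Expected counts, rounded to whole numbers, were scaled with TMM (edgeR 4.0.16) or size factors (DESeq2 1.42.0) in R 4.3.3, and neither tool was used for a test. Scaling factors came from genes with at least 10 counts in both libraries. Ratios used a prior count of 0.5 and genes with a mean of at least 1 TPM and 50 summed counts. Intervals (95%) are exact binomial, and cover counting error only. The ratio code was tested on simulated data. Exon inclusion was the TPM of transcripts with the exon over that of all transcripts with both neighbouring exons.

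Replicate 2 and replicate 1 are called biological replicates but carry 1 donor identifier, so the spread between them may be partly technical. Members, gene lists and marker lists were chosen with earlier results of these data known. Named were all 9 genes, transcripts with at least 5% of a gene in both libraries in either quantification, all App forms, the 3 genes nearest App, and the highest and lowest of each list. The Aph1 genes and Psenen were all named, and 1 listed gene is not reported here. Spike-ins stayed out of library sizes except in the ERCC scaling. Alternatives were the second quantification, other scalings, filters and pseudocounts, and leaving out each library. CAST/EiJ alleles were not analysed separately.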

Additional observations from a re-analysis of the deposited data

How the results depend on the processing

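No paired analysis was possible because the libraries form 1 group. All 9 genes were detected and none passed 1.2-fold between libraries under every alternative run for each of these counts. Between quantifications, 1 gene, Itm2b, was over 2-fold apart, also with a pseudocount of 1 and without a filter on low values. All 9 genes passed the filters on low values, so leaving these out could not change this count or the 1.2-fold count. A pseudocount of 1 is also too small beside the level of Itm2b to change its call. Over complete reading frames alone Itm2b was within 2-fold, at -0.31 on the log2 scale, first over second. The App level was 499.9 TPM, against 764.4 TPM in the second quantification, 1137 TPM when rescaled over nuclear protein-coding genes and 741.2 TPM over complete reading frames of the second quantification; in the single libraries it lay between 476.6 and 523.2 TPM. The share of App RNA without the Kunitz and OX2 exons was 90.66%, against 87.85% in the second quantification, 91.73% over complete reading frames and 88.88% with expected counts in place of TPM; in the single libraries it lay between 90.17% and 91.15%. Of 86 values under alternatives, 33 stayed within the spread between libraries or the same count. The other 53 moved beyond it, 47 of them for single genes, of which 30 were higher. With 2 libraries, leaving 1 out cannot move a mean beyond their SD, and detection already required both libraries. Values with 1 library left out were therefore bound to be among the 33, and show no stability. Comparisons that turned round with the quantification or the transcripts counted included Itm2b against App, Itm2b against Aplp1, and Aplp2 against Apbb1. Aplp2-201 against Aplp2-202, Bace1-201 against Bace1-202, Apbb1 against Mapk8ip1, and Aplp2-201 against the summed App Kunitz forms also turned round. Genes past 1.2-fold were between 20.1% and 23.7% of those tested across scalings, and 48.5% without a filter on low counts. Complete-frame levels, exon inclusion in the second quantification and the second reading of the Aplp2 exon were chosen after seeing the data. With 2 libraries, spread between animals is poorly known, and low transcripts rest on few counts.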
